A study of Mus musculus with 15 samples.

Results

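The peaks described here lie at Atoh1, the gene of the transcription factor ATOH1, on mouse chromosome 6. They are all peaks that overlap chr6:64650000-64720000 (build mm9) in any of 12 deposited peak lists, 98 peaks of 778471 in all. The gene is a plus-strand gene at about 64679000 to 64681300 within this window, and these ends are approximate because no mm9 annotation was used here. Sec-Pro are secretory progenitors of the crypt, from mice with Rbpj deleted (Rbpj-/-) or given the Notch inhibitor dibenzazepine (DBZ). Ent-Pro are enterocyte progenitors of the crypt from Atoh1-/- mice, GOB are goblet cells of Rbpj-/- villi, and ENT are enterocytes of Atoh1-/- villi. ISC are stem cells sorted for green fluorescent protein from Lgr5-eGFP-Cre mice. All mice are given as C57BL/6, with no age, and the labels do not say what drives the deletions, which bases were removed or whether animals were pooled. No sort is given for any population but ISC, so a peak in all cells and a peak in some of them cannot be told apart.

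ATOH1 is a basic helix-loop-helix protein that binds E-boxes (CANNTG) and is required for secretory cells of the intestine, among them goblet cells. Cells under active Notch signalling keep Atoh1 off through repressors of the HES family, and cells that escape Notch express it and become secretory, which is called lateral inhibition. In the mouse nervous system an enhancer downstream of the gene is bound by ATOH1 itself, so the factor maintains its own expression there. H3K4me2 marks promoters and enhancers, H3K27ac marks those that are active, and DNase I hypersensitive sites (DHS) mark open chromatin.

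The bases just before the start site are shown because peaks of open chromatin and of H3K4me2 lay across the approximate gene start, and because HES repressors are known to bind CACGNG sites. The sequence is credited to RefSeq, build GRCm38.p6, plus strand, chr6:64728875-64729124, the 250 bases before the start, with matches to CACGNG on either strand in capitals.
Atoh1 promoter: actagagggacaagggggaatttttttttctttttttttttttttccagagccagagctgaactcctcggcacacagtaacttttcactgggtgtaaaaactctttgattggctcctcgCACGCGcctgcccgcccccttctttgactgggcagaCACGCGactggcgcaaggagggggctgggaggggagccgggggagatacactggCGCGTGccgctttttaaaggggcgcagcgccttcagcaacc
The 3 matches begin 131, 95 and 41 bases before the start site. Of 32851 mouse promoter windows of the same length, 23.5% held at least 1 match to CACGNG, and 1.11% held at least 3. The E-box pattern CANNTG was not found in these bases, whereas 66.2% of all promoter windows held it. The CACGNG pattern was chosen after its matches were seen, so its shares are no test. The promoter windows were not matched for base composition, on which the shares of both patterns depend. Letters that match are not shown to be bound sites, and missing letters say nothing of binding elsewhere.

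The 12 lists held between 15240 and 92279 peaks, covering 3.41 to 75.0 Mb. The 3 input DNA samples of the 15 were not analysed here. The depth of the libraries is unknown, and a missing peak is therefore not shown to be absence of the mark. Each peak has an unnamed score from the authors, whose lowest value was at most 2.72 in every list. A percentile below is the share of peaks in the same list with that score or less, and percentiles of different lists show no change between populations. Which of both Sec-Pro preparations served for H3K27ac, DHS and ATOH1 is not said in the labels. Ent-Pro H3K4me2 has 2 libraries (replicates 1 and 2), every other list is 1 library, and no test between populations was made.

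The deleted gene was examined before the comparisons. All 4 Ent-Pro lists had a gap over Atoh1, in H3K4me2, H3K27ac and open chromatin alike, whereas the library labelled ENT, also from Atoh1-/- mice, had a peak across it. The left peak ended at 64679174 and 64679191 in Ent-Pro H3K4me2 replicates 1 and 2, at 64679181 in Ent-Pro H3K27ac and at 64679178 in Ent-Pro DHS, a spread of 17 bp over 3 assays. The next peak began at 64680300 and 64680302 in the H3K4me2 replicates, 2 bp apart, at 64680353 in H3K27ac and at 64680089 in DHS. The gaps therefore measured 1125 and 1110 bp in H3K4me2, 1171 bp in H3K27ac and 910 bp in DHS. The starts after the gap agreed less, with a spread of 264 bp over the 4 lists. Of 85881 right ends of peaks in Ent-Pro H3K4me2 replicate 1, 5 (0.00582%) had a right end of all 3 other Ent-Pro lists within 20 bp. The end at Atoh1 is among them by choice, since this limit exceeds its spread of 17 bp and the comparison was made after its values were seen. Starts of peaks were not compared over the genome, so the share is no test of the gap.

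The stretch free of peaks in all 4 Ent-Pro lists ran from 64679192 to 64680088, 897 bp inside the gene. All 8 other lists had a peak in it. ATOH1 covered 377 bp of it, Sec-Pro DHS 578 bp and Sec-Pro H3K27ac 690 bp. The H3K4me2 lists of DBZ-treated Sec-Pro, Rbpj-deleted Sec-Pro, GOB and ISC covered all of it, and so did that of the library labelled ENT, with a peak from 64677583 to 64680224. This peak goes against what the 4 Ent-Pro lists show for the same genotype, so the sample is called the library labelled ENT throughout.

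**Figure D1:**
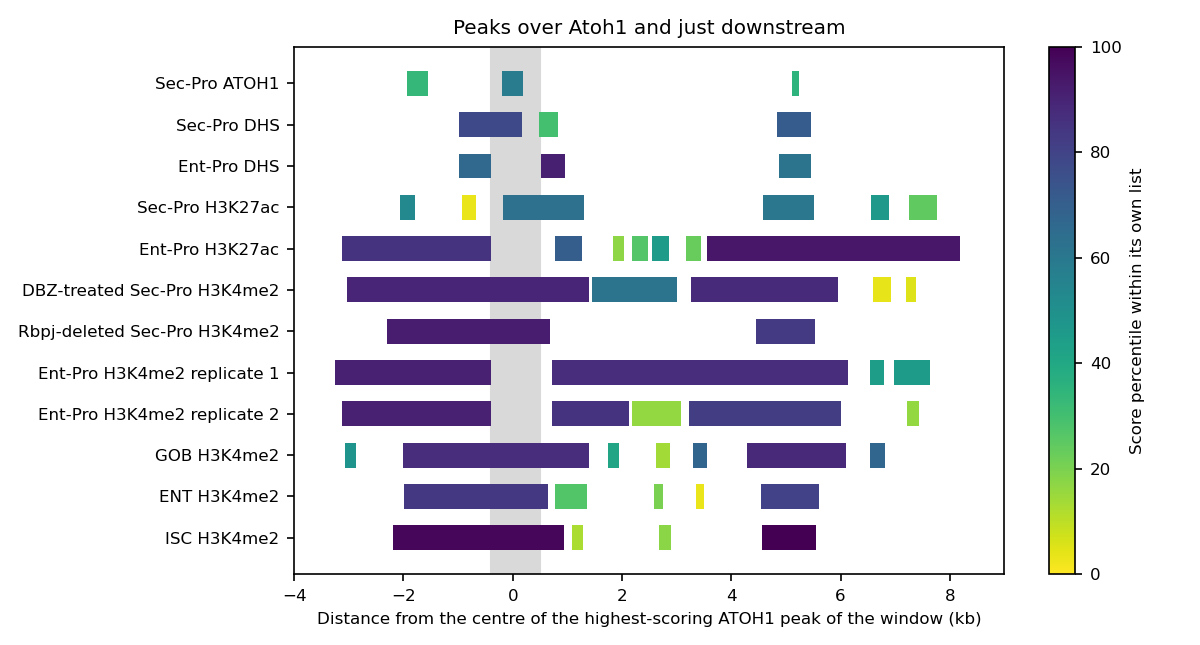
Peaks (bars) over Atoh1 and just downstream in the 12 lists (rows), against the distance in kb from the centre of the highest-scoring ATOH1 peak of the window, coloured by score percentile within the list. Grey marks the 897 bp without a peak in the 4 Ent-Pro lists, which the peaks of all other lists cover at least in part.

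Across the genome (autosomes and X), 1777 stretches of at least 100 bp were covered by both Sec-Pro H3K4me2 lists and by none of the 4 Ent-Pro lists, with a median length of 156 bp. At Atoh1 the stretch was the third longest, and 3 (0.169%) were at least as long, counting Atoh1. In 131 of the stretches both Ent-Pro H3K4me2 libraries had peaks within 1 kb on either side, and the stretch at Atoh1 was the longest of these, with the next at 706 bp. Other populations often had a peak in these 131 stretches, with 55.7% marked in GOB, 70.2% in the library labelled ENT and 16.8% in ISC. Loss of chromatin marks and loss of the DNA itself cannot be told apart in a peak list, and every value of Ent-Pro inside the stretch carries this limit.

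The ATOH1 list comes from 1 Sec-Pro library precipitated with a FLAG antibody, and the labels do not say how the tag was introduced. Of 15240 ATOH1 peaks, 3 lay at Atoh1: before the gene, within it and downstream of it. The upstream peak, at 64677638 to 64678038, ended 961 bp before the gene interval and had a score of 4.90 (percentile 33.2). The peak in the gene, at 64679392 to 64679768, had the highest score of the 3, 7.31 (percentile 58.5). The downstream peak, at 64684689 to 64684819, began 3.39 kb after the gene interval and had a score of 5.28 (percentile 35.5). None of these was a strong peak of its list, in which 6318 peaks scored higher than the one in the gene. The peaks before and in the gene were long for this list (401 and 377 bp, length percentiles 92.7 and 91.5), while the downstream one had the shortest length that the list holds, 131 bp.

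**Figure D2:**
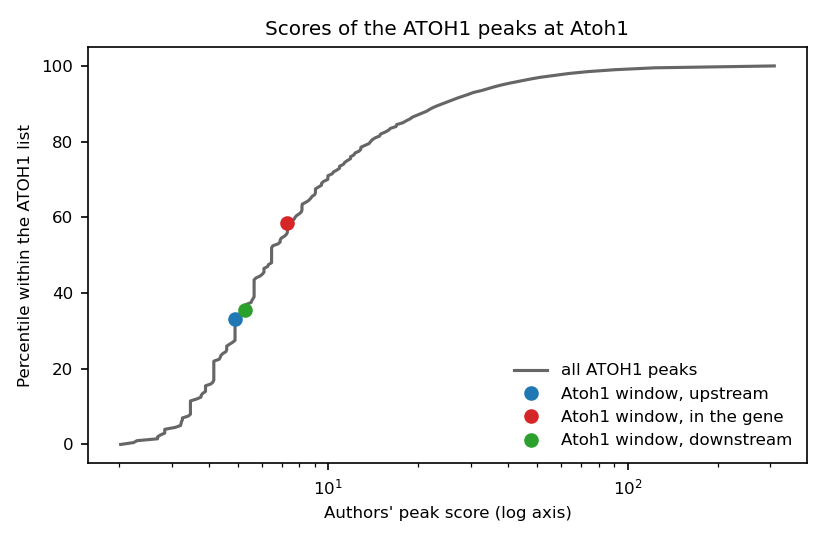
Percentile of each peak within the ATOH1 list against the authors' score (log axis). The grey line is the whole list of 15240 peaks, and the points are the 3 peaks at Atoh1, which lie at percentiles 33.2 to 58.5.

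No other ATOH1 peak lay in the window. The next peak on the left lay 3364 kb away and the next on the right 64.7 kb away, at 64749528 to 64749767. Of 37673 other tiles of the window's length on the autosomes and X, 7757 held at least 1 ATOH1 peak. At least 3 were held by 1701 tiles (4.52%), and the richest tile held 39.

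Each ATOH1 peak was set against the 11 other lists. The downstream one was marked in all of them, and the one in the gene in all but the 4 Ent-Pro lists. All 3 ATOH1 peaks overlapped Sec-Pro H3K27ac, against 2 of 3 for Ent-Pro H3K27ac, where 47.7% and 51.4% of all ATOH1 peaks did so. DHS of Sec-Pro overlapped 2 of 3, against 1 of 3 for DHS of Ent-Pro, and over the whole list these shares were 33.9% and 37.0%. The difference in both assays was the peak in the gene, which lies inside the stretch without Ent-Pro peaks. H3K4me2 overlapped all 3 in DBZ-treated and in Rbpj-deleted Sec-Pro (58.9% and 48.8% of all ATOH1 peaks), and 2 of 3 in Ent-Pro replicates 1 and 2 (58.1% and 49.7%). It also overlapped all 3 in GOB (62.8%), in the library labelled ENT (55.0%) and in ISC (37.7%). With 3 peaks, these counts describe the locus only.

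Open chromatin was found at 3 places in both progenitors: across the gene start, near the 3′ part of the gene and downstream. All 3 DHS of Sec-Pro overlapped one of Ent-Pro and the reverse, where 85.4% of all Sec-Pro DHS and 70.2% of all Ent-Pro DHS did so. Across the gene start, the Sec-Pro DHS ran over 1148 bp, from 64678597 to 64679744 (score 83.8, percentile 77.9). That of Ent-Pro began 9 bp further on, at 64678606, and stopped at the edge of the gap, at 64679178, after 573 bp (score 36.2, percentile 66.5). Here the peaks differ in their right ends, not in where they begin. The ATOH1 peak in the gene overlapped the Sec-Pro DHS, whereas 213 bp lay between it and the Ent-Pro DHS.

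The order of the DHS within each list was different. In Sec-Pro the DHS in the 3′ part, at 64680064 to 64680415, was the weakest of the 3 (score 11.5, percentile 29.9). In Ent-Pro the DHS there, at 64680089 to 64680542, was the strongest of the 3 (score 155, percentile 91.2). It adjoins the stretch without Ent-Pro peaks, and the part of that stretch in its score was not tested.

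The downstream DHS was nearly the same in both progenitors. It ran from 64684420 to 64685047 in Sec-Pro (score 59.9, percentile 71.5) and from 64684463 to 64685031 in Ent-Pro (score 27.6, percentile 61.9). Its centre lay 20.5 bp from that of the downstream ATOH1 peak in Sec-Pro, against 7.00 bp in Ent-Pro. It began 3.12 kb after the gene interval in Sec-Pro and 3.16 kb in Ent-Pro, so open chromatin was found there in cells of Atoh1-/- mice as well. The upstream ATOH1 peak had no DHS in either list, and the nearest began 558 bp further on in Sec-Pro, against 567 bp in Ent-Pro.

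H3K4me2 was found at the gene and at the downstream site in all 7 libraries. The peak over the gene start was the highest-scoring one of the window in 5 of them. It had a score of 102 (percentile 89.6) in DBZ-treated Sec-Pro, 69.4 (percentile 92.2) in Rbpj-deleted Sec-Pro, and 121 (percentile 90.8) and 71.7 (percentile 90.7) in Ent-Pro replicates 1 and 2. In GOB it had a score of 105 (percentile 87.5), in the library labelled ENT 75.0 (percentile 83.8) and in ISC 22.0 (percentile 98.3). It was a wide peak in each list, 4442 and 2984 bp long in DBZ-treated and Rbpj-deleted Sec-Pro, 2844 and 2729 bp in Ent-Pro, where the gap ends it, 3415 bp in GOB, 2642 bp in the library labelled ENT and 3141 bp in ISC.

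The downstream H3K4me2 peak holds the DHS and the ATOH1 peak described above. It scored 97.7 (percentile 88.2) in DBZ-treated Sec-Pro, 53.0 (percentile 83.0) in Rbpj-deleted Sec-Pro, and 107 (percentile 87.2) and 54.9 (percentile 82.1) in Ent-Pro replicates 1 and 2. In GOB, where it was the highest-scoring peak of the window, it scored 115 (percentile 88.7), and in the library labelled ENT 58.6 (percentile 80.2). In ISC it stood out within the list, with a score of 27.7 and 105 of 68407 peaks above it (percentile 99.8). The peak over the gene start in ISC was among the longest of its list, with 97 longer ones. Stem cells thus carried the mark both at the gene and at the downstream site.

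Between the gene and the downstream site, H3K4me2 was nearly continuous in Ent-Pro and in DBZ-treated Sec-Pro. The peak of Ent-Pro replicate 1 from 64680300 to 64685715 was 5416 bp long, with 466 longer ones in its list. In Ent-Pro replicate 2 the longest peak of the window ran from 64682809 to 64685591 (2783 bp). DBZ-treated Sec-Pro had peaks at 64676543 to 64680984, 64681039 to 64682591 and 64682837 to 64685535. Rbpj-deleted Sec-Pro had no peak between 64680269 and 64684040. Apart from their peaks over the gene start and at the downstream site, GOB, the library labelled ENT and ISC had short peaks of 149 to 588 bp between these positions. The 588 bp peak of the library labelled ENT and a 203 bp peak of ISC lay inside the approximate gene interval.

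**Figure D3:**
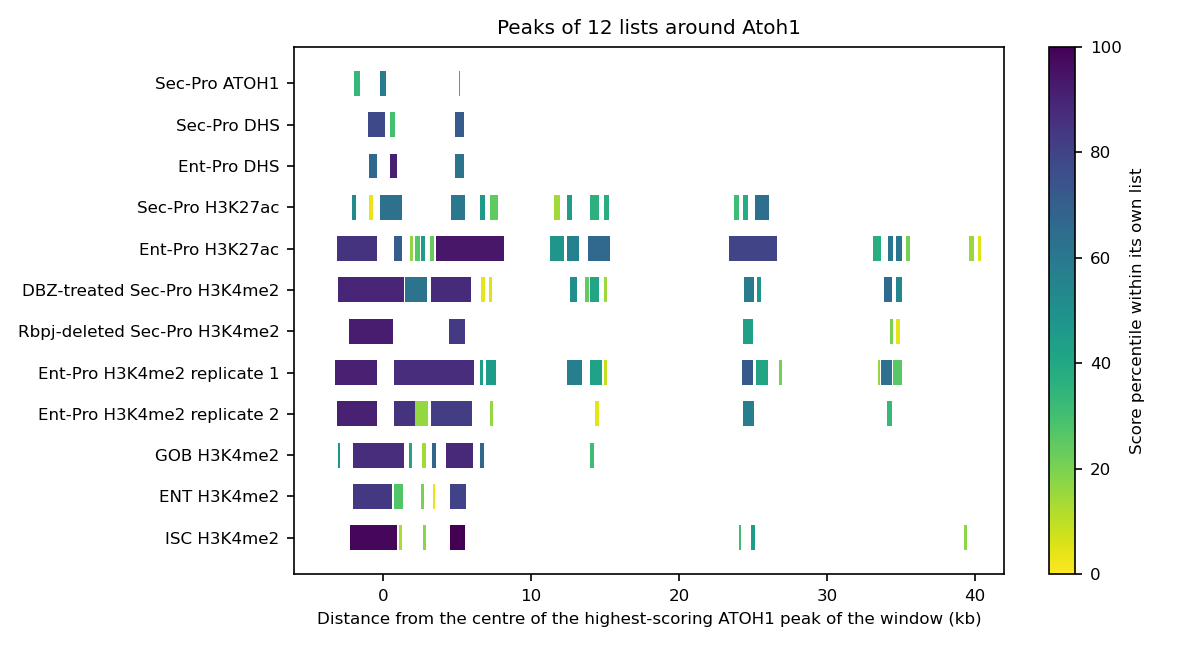
Peaks (bars) of the 12 lists (rows) at Atoh1, against the distance in kb from the centre of the highest-scoring ATOH1 peak of the window, coloured by score percentile within the list. ATOH1 and DHS peaks lie in the left cluster alone, Ent-Pro H3K27ac reaches into all 5 clusters, and GOB and the library labelled ENT have no peak in the 3 clusters furthest right.

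Acetylation was the assay in which the progenitors differed most in covered length. In the window, 13 H3K27ac peaks covered 6993 bp in Sec-Pro, and 17 peaks covered 17573 bp of it for Ent-Pro. All 13 peaks of Sec-Pro overlapped one of Ent-Pro (79.8% over the whole list), whereas 7 of 17 peaks of Ent-Pro overlapped one of Sec-Pro (77.4% over the whole list). The difference of -10580 bp (Sec-Pro minus Ent-Pro) was reached in the same direction by 1 of 37673 other tiles (0.00265%). Both lists cover a similar length of the genome, 59.7 Mb for Sec-Pro and 64.0 Mb for Ent-Pro. With 1 library each, this describes these libraries, and no replicate shows the spread. In every comparison of Sec-Pro with Ent-Pro, cell type cannot be told apart from the Atoh1 deletion, the Rbpj deletion or DBZ.

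The highest-scoring H3K27ac peak of Sec-Pro in the window lay at 64704695 to 64705665 (score 16.8, percentile 64.0). The longest one, at 64679399 to 64680884, covered much of the gene (1486 bp, score 16.0, percentile 63.1). At the downstream site the Sec-Pro peak was 947 bp long (score 14.7, percentile 60.4). In Ent-Pro the highest-scoring and longest peak of the window was at the downstream site, from 64683142 to 64687765 (4624 bp, score 165, percentile 93.9). The Ent-Pro peak before the gap was 2719 bp long (score 92.1, percentile 85.5), where Sec-Pro had peaks of 271 and 255 bp. Over all 13 Sec-Pro peaks the percentiles ran from 3.49 to 64.0 with a median of 38.4, and over all 17 Ent-Pro peaks from 4.94 to 93.9 with a median of 47.7. Sec-Pro acetylation reached into the stretch without Ent-Pro peaks, and Ent-Pro had acetylation on both sides of it.

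The peaks of all lists fell into 11 sites, or 5 clusters when peaks within 1 kb were joined, and no list had a peak in the 26.3 kb between the left end of the window and 64676331. Cluster 1, at 64676331 to 64687765, holds the gene and the downstream site and had peaks in all 12 lists. Every DHS and ATOH1 peak of the window lay in it. The other clusters carried histone marks alone.

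Cluster 2, at 64690855 to 64694894, had 1577 bp of H3K27ac in Sec-Pro, against 3248 bp for Ent-Pro. Its H3K4me2 covered 1510 bp in DBZ-treated Sec-Pro, 1971 and 251 bp in Ent-Pro replicates 1 and 2, and 247 bp in GOB. Rbpj-deleted Sec-Pro, the library labelled ENT and ISC had no peak there. Cluster 3, at 64702976 to 64706522, had 1592 bp of H3K27ac in Sec-Pro, against 3214 bp for Ent-Pro. H3K4me2 was found there in every progenitor list, over 935 and 657 bp in DBZ-treated and Rbpj-deleted Sec-Pro and 1764 and 747 bp in Ent-Pro, and over 408 bp in ISC. It was not found there in GOB or in the library labelled ENT.

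Cluster 4, at 64712676 to 64715199, had H3K4me2 in all 4 progenitor lists and in no other. It covered 935 and 458 bp in DBZ-treated and Rbpj-deleted Sec-Pro, and 1457 and 401 bp in Ent-Pro. Acetylation was found there in Ent-Pro, over 1611 bp in 4 peaks, and not in Sec-Pro. Cluster 5, at 64718830 to 64719963, had 1 short H3K4me2 peak in ISC (score 4.18) and 2 short H3K27ac peaks in Ent-Pro. The last Ent-Pro H3K27ac peak inside the window had a score of 3.90, and the first outside it, 306 bp past the end, a score of 7.26. Clusters 3 and 4 thus had H3K4me2 in all 4 progenitor lists and in neither villus list, while ISC had it in cluster 3 but not in cluster 4.

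**Figure D4:**
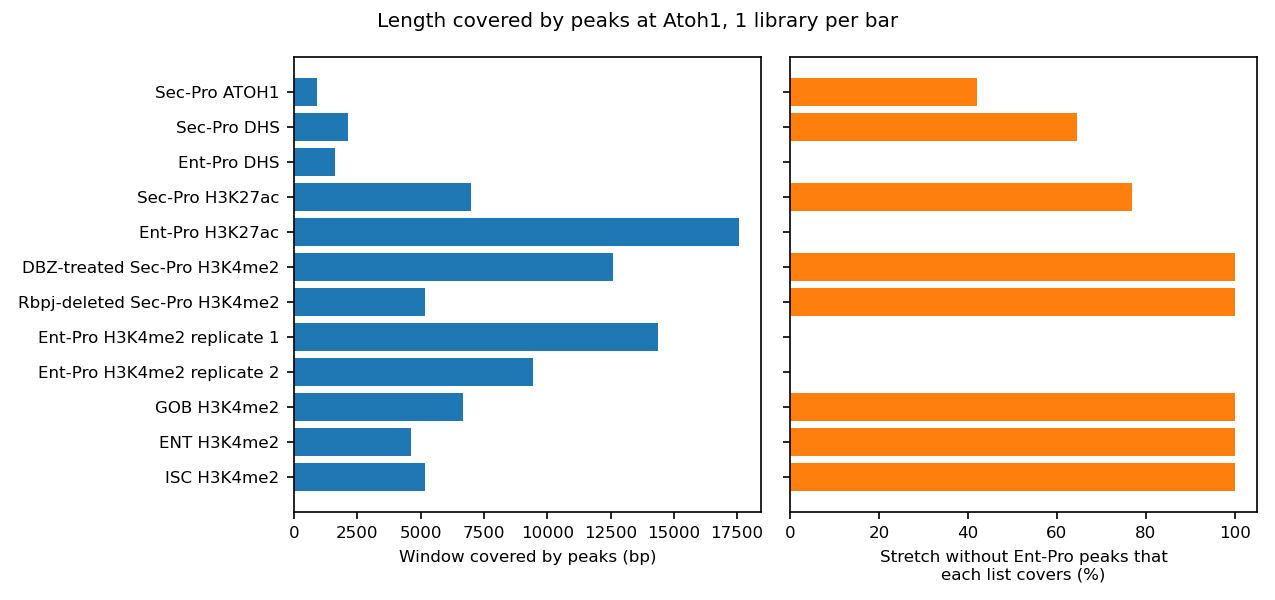
Length of the window covered by peaks in bp (left) and share of the 897 bp without Ent-Pro peaks that each list covers in percent (right), 1 library per bar. Ent-Pro H3K27ac has the longest coverage at 17573 bp, and the Ent-Pro lists are at 0 on the right by definition.

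For H3K4me2, progenitor lists were paired by their shortest peak, 146 bp with DBZ and 200 bp with Rbpj deletion, since this length differs between lists. Covered length was lower in Sec-Pro in both of these pairs. It was 12592 bp in DBZ-treated Sec-Pro and 14370 bp in Ent-Pro replicate 1, and 5176 bp in Rbpj-deleted Sec-Pro and 9438 bp in Ent-Pro replicate 2. The direction depends on the pairing, since DBZ-treated Sec-Pro covered more than Ent-Pro replicate 2. The difference was -1778 bp in the pair with DBZ, reached in the same direction by 1.25% of other tiles, and -4262 bp in the pair with Rbpj deletion, reached by 0.0265%. Outside the stretch without Ent-Pro peaks, these differences were -2675 and -5159 bp. The pair with DBZ turned to 24 bp when the upper 50% of each list by score was used.

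In the pair with DBZ, the shares of overlapping peaks were near those of the whole lists. There, 12 of 13 peaks of DBZ-treated Sec-Pro overlapped one of Ent-Pro replicate 1 (81.6% over the whole list), as did 11 of 13 Ent-Pro peaks in reverse (84.1%). For Rbpj-deleted Sec-Pro, 4 of 5 peaks overlapped one of Ent-Pro replicate 2 (86.3%), as did 4 of 8 Ent-Pro peaks in reverse (83.6%). The Ent-Pro replicate 2 peaks without a partner in the Rbpj-deleted list lay at 64680302 to 64681717, 64681770 to 64682654, 64686794 to 64687019 and 64693933 to 64694183. Each of them overlapped an H3K4me2 peak of DBZ-treated Sec-Pro, so they are not particular to Ent-Pro. The 2 Sec-Pro lists themselves differed here as well, with 12592 bp under DBZ and 5176 bp after Rbpj deletion, and so did the Ent-Pro replicates, with 14370 and 9438 bp.

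Open chromatin spanned 2128 bp in Sec-Pro, against 1596 bp for Ent-Pro. The difference of 532 bp was reached by 0.236% of other tiles in the same direction. Outside the stretch without Ent-Pro peaks the difference was -46 bp. That stretch holds no Ent-Pro peak by definition, so leaving it out could only lower the difference. Over its bases, loss of DNA and closed chromatin cannot be told apart. Covered length also leaves out scores, by which the DHS in the 3′ part ranked at percentile 29.9 in Sec-Pro and 91.2 in Ent-Pro.

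In the villus, GOB carried more H3K4me2 at Atoh1 than the library labelled ENT. GOB had 8 peaks that covered 6657 bp, and the library labelled ENT 5 peaks that covered 4602 bp. All 5 peaks of the library labelled ENT overlapped one of GOB (70.8% over the whole list), and 4 of 8 peaks of GOB overlapped one of that library (75.2%). The difference of 2055 bp was reached by 1.86% of other tiles in the same direction. The GOB peaks without an overlap in the library labelled ENT were short, and the highest-scoring of them lay at 64686122 to 64686388 (267 bp, score 23.0). That peak overlapped H3K4me2 peaks of DBZ-treated Sec-Pro and of Ent-Pro replicate 1. ISC had 7 peaks that covered 5182 bp.

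**Figure D5:**
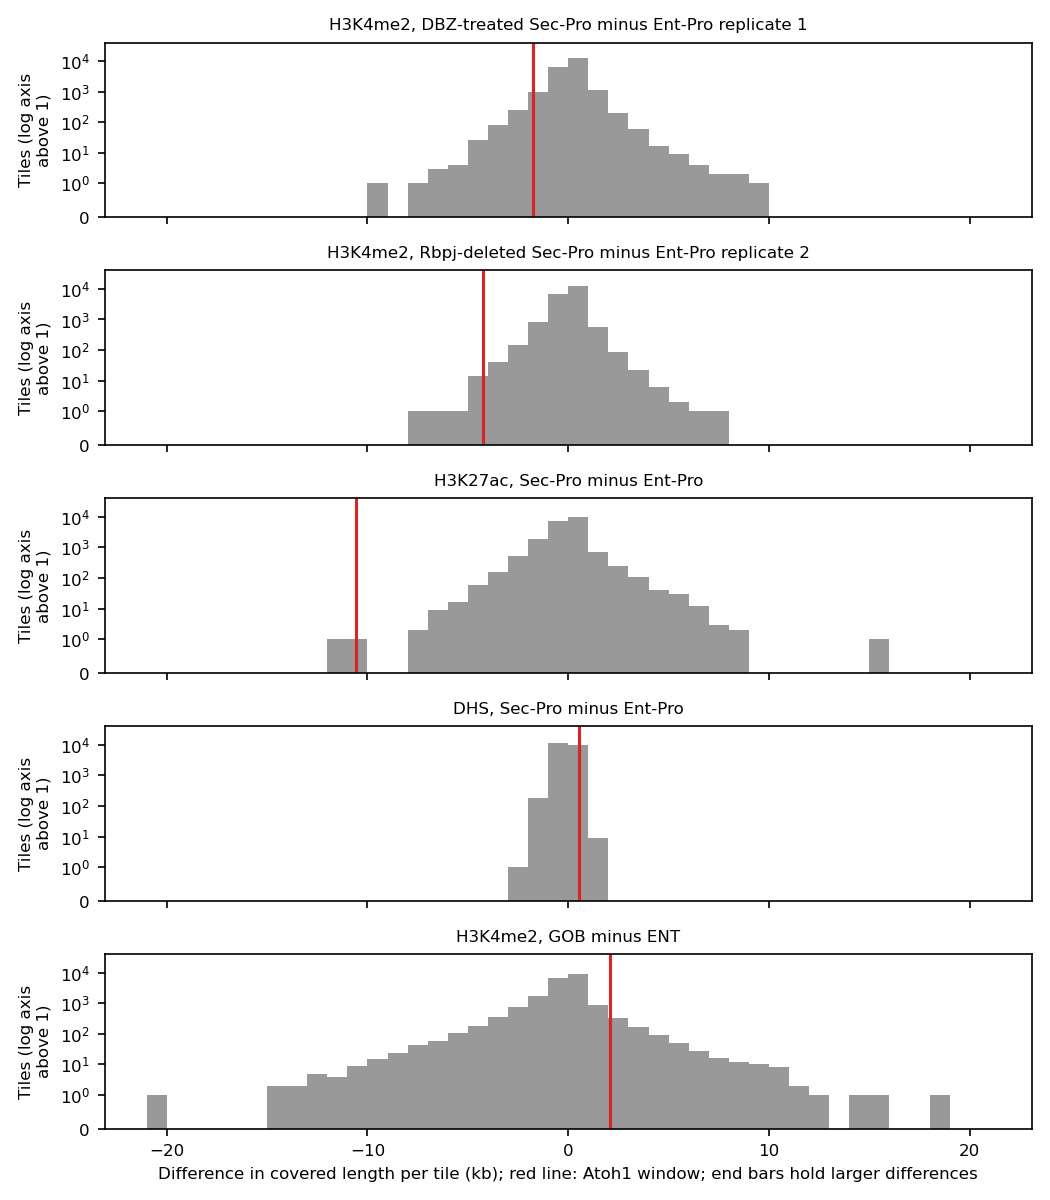
Difference in covered length per tile in kb (horizontal axis) and number of tiles with a peak in any list (vertical axis, logarithmic above 1) for 5 pairs of lists. The red line is the window at Atoh1, at which H3K27ac has the largest difference of the 5 pairs, -10580 bp.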

How the data were processed

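The tools were MACS2, Bowtie 0.12.7 and CASAVA 1.7 and the build mm9, per the submitters' processing notes, with parameters not given in the sources used here. The authors deposited 1 peak list per library without a header, with position, name and an unnamed score per peak, and the score was used only to rank peaks within a list.

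Members and comparisons were chosen with earlier results of these data known, and the stretch over the gene, its genome-wide counterparts and the CACGNG pattern after its values were seen. Overlaps of at least 1 bp were counted with NumPy 2.4.6 under Python 3.11.15, and figures drawn with matplotlib 3.10.9. Tiles have the window's length of 70001 bp and leave out the window itself. Every ATOH1 peak and DHS is named, and so are the widest and the highest-scoring histone peak per list. Other histone peaks were named after their values were seen. Counting was tested on simulated data. No mm9 genome or annotation was at hand, so sequence under peaks was not read and no coordinates were converted. Whether replicates came from separate animals is not given. The neighbouring genes of Atoh1 are not reported here.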

Additional observations from a re-analysis of the deposited data

How the results depend on the processing

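No paired analysis was possible because the values at 1 locus come from no test. Differences in covered length kept their direction with the window made longer or shorter and with lists of equal length by score. Some sizes moved by over 1.5 times: for DBZ-treated Sec-Pro minus Ent-Pro replicate 1, -2841 bp with a longer window (2 times), -427 bp with a shorter one and -2675 bp without the stretch over the gene (an alternative added after seeing the data), and for H3K27ac -6774 bp with the shorter window. Using the upper 50% of each list by score turned the DBZ pair to 24 bp, made the DHS difference 180 bp and left 1 ATOH1 peak, overlapped by DHS in 1 case for Sec-Pro and 0 for Ent-Pro. Merging peaks within 1 kb turned the DHS difference to -59 bp, since it bridges the gap in Ent-Pro DHS, and leaving out the stretch turned it to -46 bp. Merging also raised GOB minus the library labelled ENT to 4777 bp, and the gene interval covered by Ent-Pro H3K27ac and DHS to 1130 and 1543 bp. Over tiles with a peak in any list, the shares were 8.07% for ATOH1 peaks and, for the differences, 2.23% (DBZ pair), 0.0474% (Rbpj pair), 0.00474% (H3K27ac), 0.422% (DHS) and 3.31% (villus). Shifted tiles moved no share by over 1.5 times. Sites with H3K4me2 in both Ent-Pro libraries numbered 4, and 4 or 6 without replicate 1 or 2. Depth is unknown, so whether low-scoring peaks, among them the upstream and downstream ATOH1 peaks, depend on it was not tested.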

Other observations

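The next ATOH1 peak to the right of the window, at 64749528 to 64749767 (score 5.11), overlapped a peak of all 7 H3K4me2 lists and of Ent-Pro H3K27ac, and none of Sec-Pro H3K27ac or of either DHS list. The other stretches at least as long as that over Atoh1, marked in both Sec-Pro H3K4me2 lists and in no Ent-Pro list, lay on chromosome 17 at 27862287 to 27863316 (1030 bp) and on chromosome 4 at 106977836 to 106978809 (974 bp). In the opposite direction, 1671 stretches of at least 100 bp were found in both Ent-Pro H3K4me2 libraries and in no Sec-Pro H3K4me2, H3K27ac or DHS list, and 0 of them reached 897 bp.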
